A study of Mus musculus with 23 samples.

Results

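The 32 genes described here carry glucose into the cell, break it down to pyruvate, turn pyruvate into lactate and export it, or admit pyruvate to the mitochondrion. The rule lists them by symbol, among the 47729 genes of a count table from sorted mouse spleen dendritic cells (DCs). All 32 were found and all 32 passed the filter on low counts, among 19597 genes tested. The mice were wild type Balb/C and the only tissue was spleen. Gates on CD8 and CD172 define 4 populations in the labels, namely DC1a (CD8hi CD172-), DC1b (CD8Int CD172+), DC2 (CD8lo CD172hi) and DC3 (CD8- CD172lo). Untreated mice gave 8 libraries, 2 for each population, and mice given a treatment named TLI, which the labels do not expand, gave 15 libraries, with 4 each for DC1a, DC1b and DC3 and 3 for DC2. Each library came from a pool of mice, and the libraries that share a treatment and a pool number came from the same mice. The labels assign TLI pools 3 and 4 to batch 2, and all untreated libraries and TLI pools 1 and 2 to batch 1, so that no untreated library stands in batch 2. RNA of few sorted cells was amplified as cDNA before sequencing, and the libraries held between 19256447 and 36997890 counts.

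Glycolysis splits glucose into pyruvate in the cytosol. Glucose enters through GLUT transporters (Slc2a genes), is trapped by hexokinase (Hk1, Hk2, Hk3), and passes phosphofructokinase, a main control point that the PFKFB enzymes stimulate through fructose 2,6-bisphosphate. Pyruvate either becomes lactate through lactate dehydrogenase and leaves the cell through monocarboxylate transporters (Slc16a1, Slc16a3), or enters the mitochondrion and the pyruvate dehydrogenase complex, which PDH kinases switch off. Activated DCs are known for a rapid rise in glycolysis, and HIF-1, whose alpha subunit is encoded by Hif1a, induces many of these genes in low oxygen.

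DC1a and DC2 differed in the markers of the classical DC types. The summed level of 9 markers of classical type 1 DCs was 3364 to 8315 CPM (counts scaled to a common library total) in DC1a and 199 to 336 CPM in DC2, whereas the sum of 8 markers of type 2 DCs was 25.2 to 49.5 CPM in DC1a and 1063 to 1956 CPM in DC2. DC1b and DC3 held 966 to 3856 CPM of the type 1 set and 124 to 1259 CPM of the type 2 set, and 7 plasmacytoid DC markers summed to 3476 and 5064 CPM in untreated DC1b and to at most 223 CPM elsewhere. RNA of other cells was present as well, in that 7 erythroid genes summed to between 18568 and 138366 CPM in the 7 TLI libraries of batch 1, to 171 to 7930 CPM in the 8 of batch 2 and to 51.2 to 2138 CPM in untreated libraries. Bulk RNA cannot tell a smaller number of cells of a type from less RNA per cell, here and in all results that follow.

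To compare genes with each other, counts were divided by the length of the gene's exons and scaled to the same total in each library (TPM). Ldha, which makes the muscle-type subunit of lactate dehydrogenase, had the highest median over the 23 libraries, at 128 TPM (range 23.1 to 767). It was followed by the phosphoglycerate kinase gene Pgk1 with a median of 82.8 TPM, the enolase gene Eno3 with 78.0 TPM and the aldolase gene Aldoa with 68.4 TPM. Of the 32 genes, 14 had a median over 10 TPM and 11 a median under 2 TPM. The lowest were Fbp1, a gluconeogenic enzyme with more than 3 counts in 7 libraries, and Slc16a3, the lactate exporter MCT4, with more than 3 counts in 11 libraries and a median of 0.0409 TPM. In all, 19 genes exceeded 3 counts in every library and 13 were at or below that floor in at least 1 of them.

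**Figure D1:**
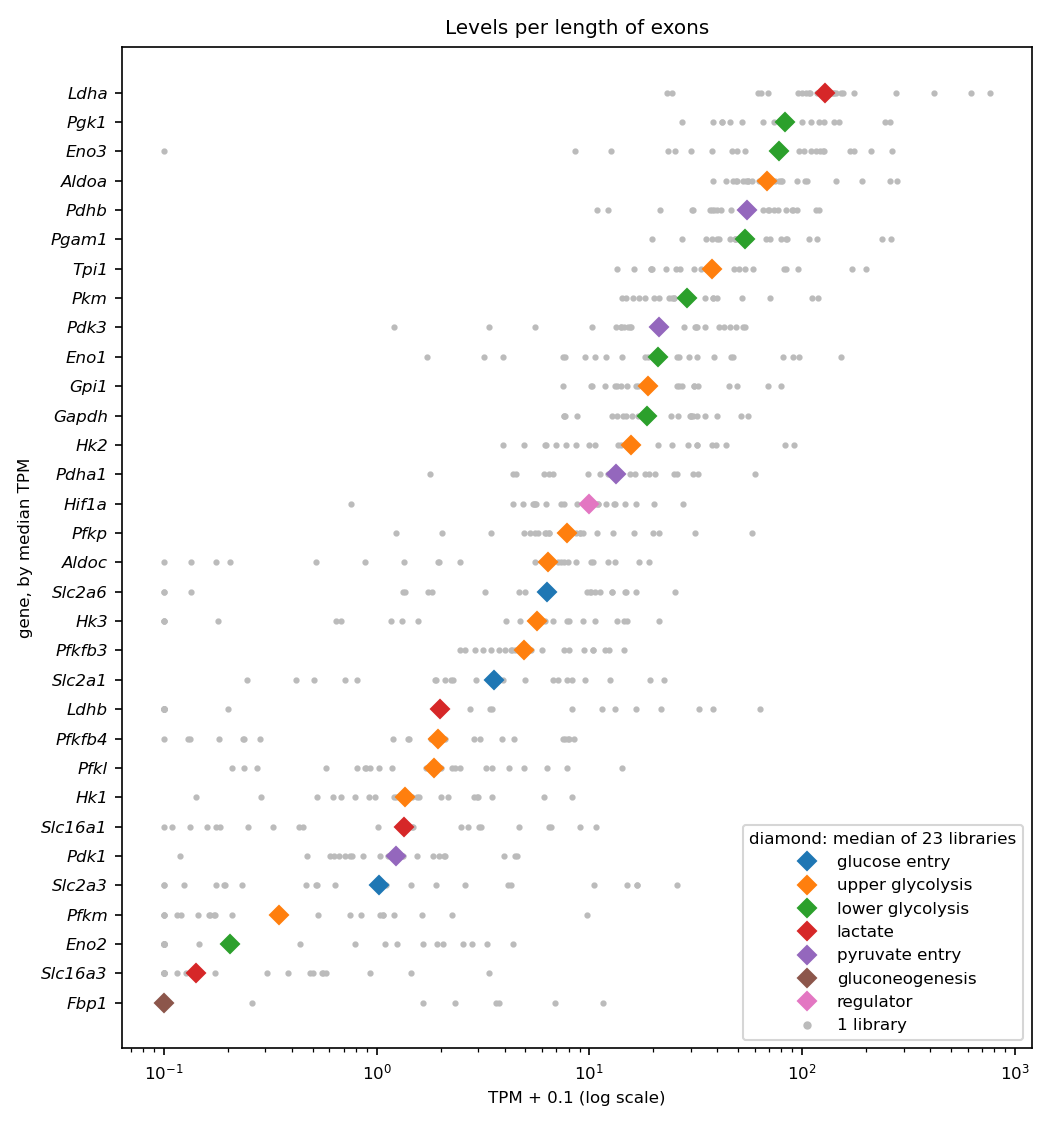
Level of each of the 32 genes in TPM plus 0.1 (x axis, log scale), where grey points are the 23 libraries and diamonds their median, coloured by role. Ldha has the highest median, 128 TPM, and the grey points of genes near the bottom reach the left edge, where a library has no count.

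The steps differed in level when read in pathway order. Among the glucose transporters, Slc2a6 had a median of 6.25 TPM, Slc2a1 (GLUT1, the common transporter of proliferating cells) 3.47 TPM and Slc2a3 0.924 TPM. Of the hexokinases, which trap glucose, Hk2 had 15.5 TPM, Hk3 5.60 TPM and Hk1 1.26 TPM. Gpi1, the next enzyme, had 18.7 TPM. At the phosphofructokinase step Pfkp had 7.76 TPM, and the liver and muscle forms Pfkl and Pfkm had 1.77 and 0.248 TPM, while Pfkfb3 and Pfkfb4, whose products regulate this step, had 4.85 and 1.84 TPM.

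Several enzymes of the later steps had higher levels. Triosephosphate isomerase (Tpi1) had a median of 37.5 TPM, Pgam1, a phosphoglycerate mutase, 53.8 TPM, and the pyruvate kinase gene Pkm 28.7 TPM. Gapdh, the glyceraldehyde phosphate dehydrogenase, had only 18.6 TPM in its own row. At the mitochondrial entry, Pdhb had 55.2 TPM and Pdha1 13.3 TPM, and their inhibitors Pdk3 and Pdk1 had 21.1 and 1.13 TPM. The second aldolase, Aldoc, had 6.29 TPM, the heart-type lactate dehydrogenase Ldhb 1.90 TPM, and Hif1a 9.86 TPM.

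Among the genes listed here, most enzymes with several isozymes were served mainly by 1 gene. Each share, here and below, is of the TPM of the listed genes only. Other genes of the same families, such as Slc16a6 and Slc2a8, are left out of it. Aldoa held a median of 95.1% of aldolase TPM over Aldoc, Ldha 99.8% of lactate dehydrogenase TPM over Ldhb, and Pdk3 94.96% of PDH kinase TPM over Pdk1. DC1b differed in lactate dehydrogenase, as Ldhb held 19.4% and 24.5% in its untreated libraries and 0% to 41.5% after TLI. Pfkfb3 held a median of 70.9% over Pfkfb4, but Pfkfb4 held a mean of 48.8% in untreated DC1b and in untreated DC2. The platelet-type phosphofructokinase gene Pfkp held a median of 76.9% and over 50% in 21 of 23 libraries. Slc16a1, the lactate transporter MCT1, held a median of 95.6% of the TPM of Slc16a1 and Slc16a3 together, although its own median was only 1.24 TPM. Slc16a3 had the higher mean share in untreated DC1b, at 73.8% (47.6% and 100% in the libraries), and in untreated DC2, at 80.2% (76.3% and 84.1%). In 1 untreated DC1b library Slc16a1 held the larger share, 52.4%. These shares rest on low levels, with a mean Slc16a3 of 1.31 CPM in untreated DC1b and 1.04 CPM in untreated DC2. No listed glucose transporter led throughout, since Slc2a6, Slc2a1 and Slc2a3 held over 50% of their summed TPM in 9, 7 and 2 libraries. For enolase, Eno3, known as the muscle isozyme, had a higher share by exon length than the widespread Eno1, with medians of 79.2% and 20.8%. In TLI DC3 the means stood the other way, at 66.0% ± 41.2 for Eno1 and 34.0% ± 41.2 for Eno3 (SD, n = 4), and Eno1 held over 50% in 3 of the 23 libraries. The shares also depend on the lengths and the copies used. When each gene was given the length of its longest transcript, the median share of Eno3 was 61.5% and that of Eno1 38.5%. Eno3 then held over 50% in 14 libraries and Eno1 in 6. The median share of Eno1 was 29.6% when the counts of its copies were added with exon lengths kept. Both changes were not made together, so which of Eno1 and Eno3 leads is not settled here.

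Some of the genes have near-identical copies in the genome, and how reads from shared stretches were assigned was not tested. Of the 76-base stretches (the read length) in the longest transcript, 67.5% of those of Pgk1, 65.2% of those of Eno1, 40.6% of those of Pgam1 and 22.6% of those of Gapdh also occurred in transcripts of other genes, while 16 of the 32 genes shared none. The Gapdh row held a total of 34950 counts, whereas 41 pseudogenes that share at least 100 stretches with it held 300849 counts. With these added, the median of Gapdh was 468 CPM in place of 52.1 CPM, and its own row held a median of 10.98% of that sum. Adding the copies multiplied Eno1 by 1.59, Pgk1 by 1.26 and Pgam1 by 1.13. Hk2 and Eno2 shared no stretch with another gene, and Pdha1 shared 13.8% of its stretches with Map3k15.

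Hk2, the hexokinase gene known to be induced in activated immune cells, was the gene that differed most often between populations. It lies on the minus strand at chr6:82725025-82774454 of GRCm38. In untreated libraries Hk2 was 57.4 and 48.4 CPM in DC1a, 15.99 and 19.9 CPM in DC1b, 88.4 and 108 CPM in DC2 and 125 and 119 CPM in DC3. The DC1b values lay below all others and did not overlap with any other untreated population. These were also the libraries that held plasmacytoid DC markers, at 3476 and 5064 CPM, and the part of such cells in the Hk2 values was not tested. Hk2 was 5.47-fold higher in DC2 than in DC1b (log2 difference 2.45 ± 0.44 SE, adjusted p = 0.0155) and 6.80-fold higher in DC3 than in DC1b (2.77 ± 0.45, adjusted p = 0.00972), by the quasi-likelihood F test of edgeR on all 23 libraries, with Benjamini-Hochberg adjustment over 19597 genes. In each case Hk2 was the only 1 of the 32 genes called, against 0.398% of all genes tested for DC2 and 0.393% for DC3. Each call was lost in 4 of the 23 fits without 1 library, namely those without either library of the populations compared, where the adjusted p reached 0.238 and 0.143. Between DC1b and DC1a the log2 difference of Hk2 was -1.56 ± 0.43 with an adjusted p of 0.121.

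After TLI, Hk2 was highest in DC2. The 4 DC1a libraries held 16.6, 15.3, 49.8 and 41.8 CPM (pools 1 to 4) and the 4 DC1b libraries 47.9, 28.1, 76.8 and 107 CPM. DC2 held 97.0 CPM in pool 1, 293 CPM in pool 3 and 325 CPM in pool 4, and DC3 held 62.0, 17.9, 122 and 112 CPM. DC1a had the lowest value within each pool, and DC2 the highest within the 3 pools that have a DC2 library. Hk2 was 6.56-fold higher in TLI DC2 than in TLI DC1a (log2 difference 2.71 ± 0.33, adjusted p = 9.18e-05), a call that held in all 23 fits without 1 library. In the same comparison 5 of 10 markers of monocytes and macrophages and 2 of 11 markers of neutrophils were called higher in DC2, with sums of 643 to 1911 CPM and 125 to 2168 CPM there, against 56.3 to 381 CPM and 7.61 to 15.2 CPM in DC1a. Their part in the Hk2 and Pdha1 differences was not tested. The other TLI calls for Hk2 were near the threshold, with DC3 2.53-fold above DC1a (1.34 ± 0.30, adjusted p = 0.0480) and 2.59-fold below DC2 (-1.37 ± 0.32, adjusted p = 0.0434). Each of the latter was lost in 20 of the 23 fits without 1 library, with the adjusted p reaching 0.197 and 0.124, and with the pools as a block the adjusted p for Hk2 in TLI DC3 versus DC1a was 0.0656.

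Relative to DC1a, Hk2 in DC1b lay lower without treatment and higher after TLI. The log2 difference after TLI was 1.13 ± 0.30 (adjusted p = 0.0777), and the difference between the TLI and the untreated contrast was 2.69 ± 0.53. The test of all 3 such differences together gave an adjusted p of 0.0878 for Hk2, the lowest of the 32 genes, and called 0 of them, against 0.0357% of all genes, with 3 at an unadjusted p below 0.05 (7.82% of all genes). DESeq2 called Hk2 (adjusted p = 0.000198) and Eno2 (adjusted p = 0.00956) in the same test, beside 1.57% of all genes. Without the 3 libraries of TLI pool 2, Hk2 was called by edgeR in both contrasts, lower in untreated DC1b than in DC1a (log2 difference -1.52, adjusted p = 0.0333) and higher in TLI DC1b than in DC1a (1.303, adjusted p = 0.0189).

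The hexokinases also differed in their shares. Hk2 held a median of 71.4% of hexokinase TPM over all libraries and over 50% in 16. Hk3, the isozyme of myeloid cells, made up 66.1% ± 10.3 (SD, n = 4) of hexokinase TPM in TLI DC1a, 44.5% ± 2.34 (n = 2) in untreated DC1a and 0.581% ± 0.821 (n = 2) in untreated DC2. Its level was 34.1 and 23.2 CPM in untreated DC1a, 0.877 and 0.142 CPM in untreated DC1b, and 24.6 to 43.5 CPM in TLI DC1a. In TLI DC1b it was 23.3, 17.8, 16.9 and 17.5 CPM in pools 1 to 4, where 11 neutrophil markers summed to 23506, 1527, 1895 and 10299 CPM, whose part in Hk3 was not tested. Hk3 passed the edgeR threshold in no comparison, while DESeq2 called it lower than in DC1a in untreated DC1b (adjusted p = 0.0347) and untreated DC2 (0.0192), and higher after TLI in DC1b (0.0349).

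**Figure D2:**
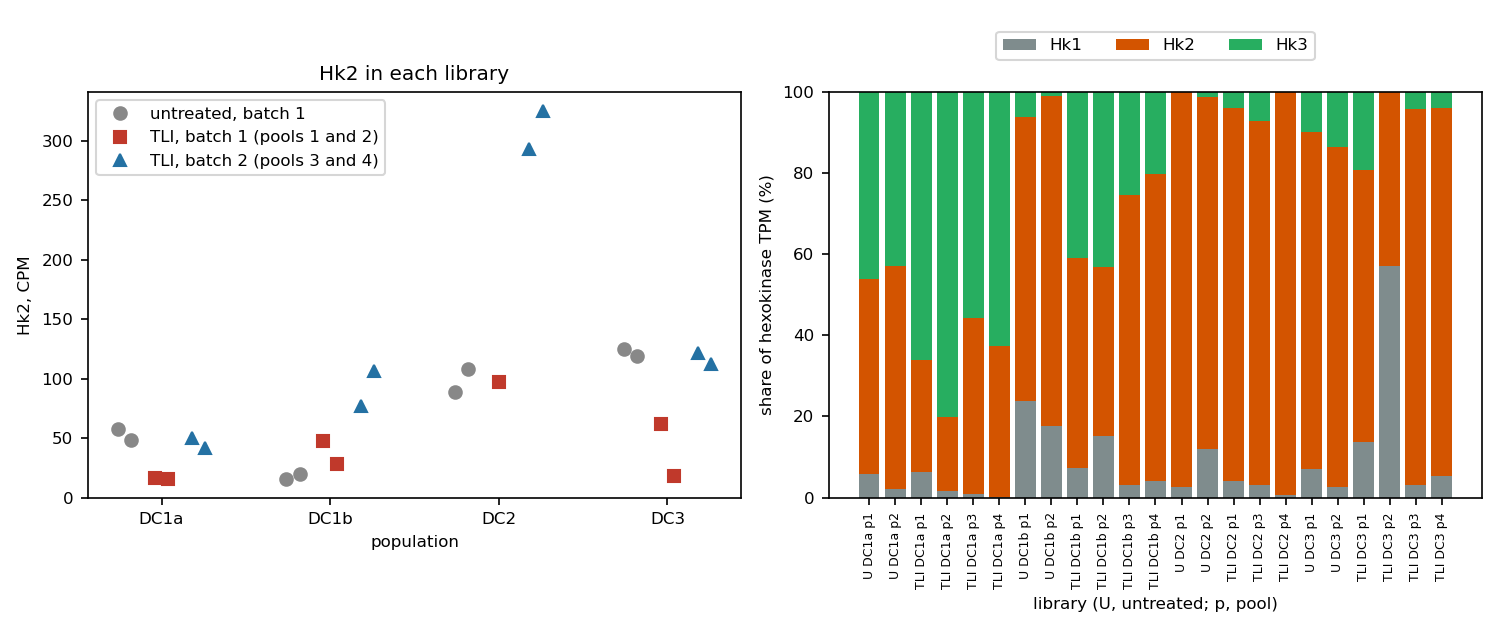
Left, Hk2 in CPM (y axis) in each library by population (x axis), where circles are untreated, squares TLI batch 1 and triangles TLI batch 2. Right, share of Hk1, Hk2 and Hk3 in the hexokinase TPM of each library (stacked bars, %). Among untreated libraries Hk2 is lowest in DC1b, 15.99 and 19.9 CPM, its highest values are those of TLI DC2 in batch 2, 293 and 325 CPM, and Hk3 takes its largest shares in TLI DC1a.

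Pdha1 encodes the catalytic E1 alpha subunit of pyruvate dehydrogenase and lies on the minus strand at chrX:160122209-160138413. After TLI it was 63.8, 71.5 and 134 CPM in DC2 (pools 1, 3 and 4) and 11.5, 26.3, 17.9 and 20.2 CPM in DC1a (pools 1 to 4), so that every DC2 library lay above every DC1a library. The difference of 4.18-fold (log2 2.06 ± 0.55, adjusted p = 0.0475 by edgeR) was lost in 15 of the 23 fits without 1 library, with an adjusted p of up to 0.150. In DC1b it was 19.4, 30.4, 61.3 and 57.4 CPM and in DC3 12.3, 45.6, 39.1 and 54.7 CPM. In untreated libraries it was 21.02 and 19.2 CPM in DC2 and 3.88 and 21.97 CPM in DC1a, and it was 20.7 and 20.1 CPM in DC1b and 30.7 and 50.7 CPM in DC3. Pdha1 overlaps exons of Map3k15 on the other strand, and the sources used here do not say whether counting used the strand. Pdhb, the gene of the E1 beta subunit, was called in no comparison of populations.

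Eno2, the enolase of neurons, showed a pattern of presence and absence. After TLI it had 0 counts in all 3 DC2 and all 4 DC3 libraries, while DC1a held 9.15, 4.86, 3.70 and 1.29 CPM and DC1b 2.65, 12.4, 9.35 and 6.17 CPM. Against a floor of 3 counts per library, Eno2 was at least 69.8-fold lower in TLI DC3 than in TLI DC1b (adjusted p = 0.0454 by edgeR). This call was lost in 16 of the 23 fits without 1 library, where the adjusted p reached 0.122, and with the pools as a block the adjusted p for Eno2 in TLI DC3 versus DC1b was 0.147. It was also lost without the 3 libraries of TLI pool 2 (adjusted p = 0.194). The same absence in TLI DC2 gave an adjusted p of 0.0570 against TLI DC1a. In the fit of the 15 TLI libraries alone, Eno2 was called in DC3 against DC1b (adjusted p = 0.0148), DC2 against DC1a (0.0168) and DC3 against DC1a (0.0228), and DESeq2 called it between DC2 or DC3 and DC1a or DC1b, with adjusted p values from 9.03e-07 to 6.3e-05. In untreated libraries Eno2 was 9.40 and 3.24 CPM in DC1a, 0 and 0.107 CPM in DC1b, 0.229 and 0 CPM in DC2, and 0 and 4.49 CPM in DC3, so the untreated DC3 libraries disagreed with each other.

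Across the 12 comparisons of populations, then, 3 of the 32 genes were called at least once. The same count was not made for all genes, and the shares that follow are for each comparison alone. In untreated libraries no member passed between DC1b and DC1a (0.837% of all genes did), DC2 and DC1a (1.91%), DC3 and DC1a (0.184%) or DC3 and DC2 (0.837%). At an unadjusted p below 0.05, edgeR gave 4 members (10.7% of all genes) for DC1b and DC1a, 5 (13.1%) for DC2 and DC1a, 2 (7.47%) for DC3 and DC1a and 4 (11.1%) for DC3 and DC2. DESeq2 called 4 members (6.39% of all genes), 3 (9.30%), 0 (3.98%) and 2 (7.39%) in the same order. After TLI, 2 members were called between DC2 and DC1a (3.40% of all genes), 1 between DC3 and DC1a (0.750%), 1 between DC3 and DC1b (1.11%) and 1 between DC3 and DC2 (1.37%). No member was called between TLI DC1b and DC1a (1.42%) or TLI DC2 and DC1b (0.214%) by edgeR. At an unadjusted p below 0.05 these gave 6 (13.6% of all genes) and 2 (10.4%), and DESeq2 called 4 (7.56%) and 2 (4.81%). With the pools as a block, Pgam1, the gene of phosphoglycerate mutase, was called between TLI DC1b and DC1a (log2 difference -1.09, adjusted p = 0.0491). The median log2 difference of the members lay between -0.41 and 0.43 in these 12 comparisons, while that of all genes lay between -0.08 and 0.11.

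Slc2a3, the high-affinity glucose transporter GLUT3, was not called but is described here because its untreated values lay far apart, a choice made after its values were seen. It was 33.3 and 58.2 CPM in DC1b and 86.4 and 49.9 CPM in DC2, against 0.111 and 1.60 CPM in DC1a and 0.352 and 0.357 CPM in DC3. DC1b and DC2 did not overlap with DC1a and DC3, but the adjusted p values by edgeR were 0.432 for DC1b against DC1a and 0.284 for DC3 against DC2. DESeq2 called Slc2a3 in 4 untreated comparisons, with adjusted p values between 0.00222 and 0.0376. After TLI the DC1b libraries held 5.45, 18.6, 0.449 and 0 CPM.

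**Figure D3:**
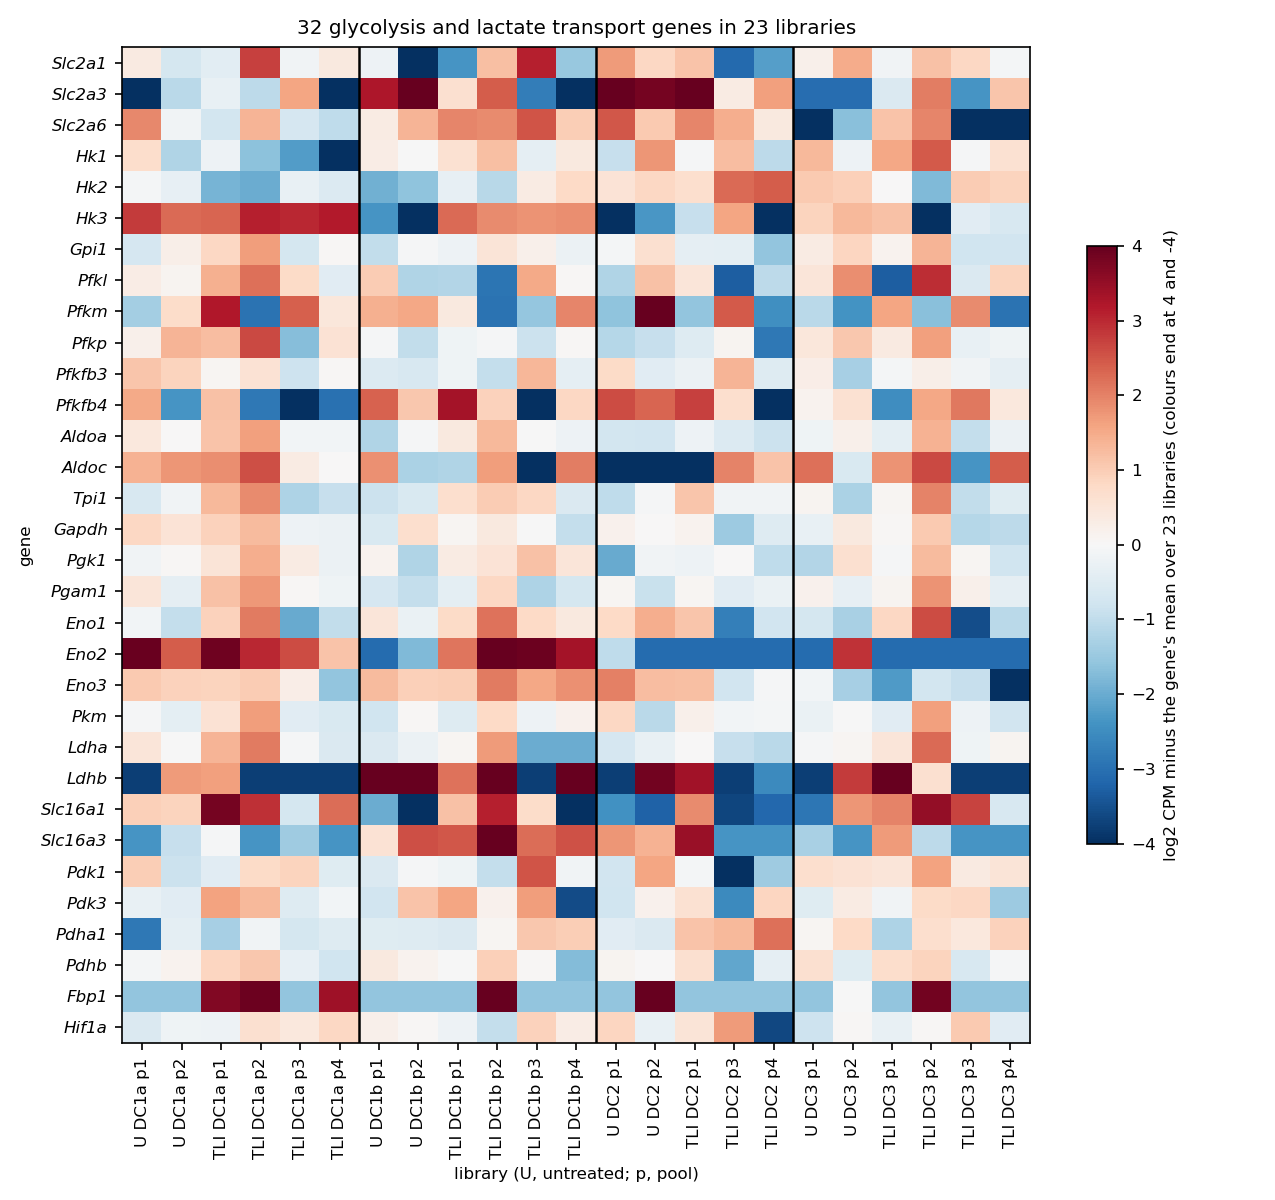
Log2 CPM of the 32 genes (rows) in the 23 libraries (columns, ordered by population, treatment and pool) minus each gene's mean, with red above and blue below the mean. The columns of TLI pool 2 are red for most glycolytic enzymes, and Hk2 is blue in TLI DC1a pools 1 and 2.

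The comparison of TLI with untreated libraries asks whether the treatment changed these genes within a population. By edgeR, 0 of 32 members passed in DC1a (0.0102% of all genes did), DC1b (0.413%), DC2 (0.0612%) and DC3 (0.0255%). At an unadjusted p below 0.05 there were 8 members in DC1a (7 higher and 1 lower), beside 9.76% of all genes, and 8 in DC1b (all higher), beside 12.4%. There were 3 in DC2 (all higher), beside 9.01%, and 6 in DC3 (4 higher and 2 lower), beside 10.4%. DESeq2 called 1 member in DC1a (3.74% of all genes), 6 in DC1b (6.28%), 1 in DC2 (4.42%) and 3 in DC3 (3.63%). The median log2 change of the 32 genes was 0.86 in DC1a, 1.06 in DC1b, 0.27 in DC2 and 0.65 in DC3, beside 0.15, 0.09, 0.02 and -0.05 for all genes. The plasmacytoid DC markers of untreated DC1b and the erythroid markers of TLI batch 1 moved with these contrasts, and their part in them was not tested. These medians depended on the batch of the TLI pools. In the fit of batch 1 libraries alone they were 1.07, 0.73, 0.11 and 0.64, and with TLI pools 3 and 4 alone, where batch and treatment cannot be told apart, they were -0.39, 0.45, -0.83 and -0.35. Without the 3 libraries of TLI pool 2 the median in DC3 was -0.05 and that in DC1a 0.31.

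Tpi1 had the lowest adjusted p among the members in DC1b and DC2, and Hk2 in DC1a and DC3. Tpi1 was 37.6 and 44.6 CPM in untreated DC1b, and after TLI 107 and 138 CPM in pools 1 and 2 and 120 and 45.9 CPM in pools 3 and 4 (log2 change 2.24 ± 0.69, adjusted p = 0.197). The log2 change of Hk2 in DC1a was -1.71 ± 0.37 (adjusted p = 0.214), and its TLI values of 16.6 and 15.3 CPM in batch 1 lay below the untreated 57.4 and 48.4 CPM, whereas the batch 2 values of 49.8 and 41.8 CPM overlapped with the untreated range. With TLI pools 3 and 4 alone, Hk2 was called higher after TLI in DC1b (log2 change 2.35, adjusted p = 0.00209) and DC2 (1.73, adjusted p = 0.00719), and Ldha lower in DC1b (-1.59, adjusted p = 0.0117).

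More of these genes were called between the batches of TLI libraries than in any other comparison by edgeR. This comparison was added after the data were seen. In this comparison 9 of 32 genes were called by edgeR (28.1%), against 17.4% of all genes. Hk2 was higher in batch 2 (log2 difference 1.49 ± 0.23, adjusted p = 0.000242), as were 9.35% of all genes. The other 8 were lower in batch 2, as were 8.07% of all genes. Of the 32 genes, 16 had a lower mean in batch 2 in all 4 populations. This count was not made for all genes, so it cannot be read as particular to the 32. The 16 include the 8, which were selected on the same libraries, so their agreement is no separate evidence. DC2 has only 1 TLI library in batch 1. The median log2 difference was -1.07 for the 32 genes and -0.23 for all genes.

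Ldha differed most firmly among the 8. It was 661 and 1094 CPM in TLI DC1a, 270 and 843 CPM in TLI DC1b, 261 CPM in TLI DC2 and 357 and 1244 CPM in TLI DC3 in batch 1. In batch 2 it was 251 and 173 CPM in DC1a, 65.7 and 64.8 CPM in DC1b, 136 and 123 CPM in DC2 and 228 and 279 CPM in DC3. Every batch 1 value lay above every batch 2 value of the same population, and untreated libraries ranged from 160 to 360 CPM. The log2 difference of Ldha was -2.05 ± 0.33 (adjusted p = 0.000362). Eno1 fell furthest, by 2.63 on the log2 scale (SE 0.52, adjusted p = 0.00198), from a median of 143 CPM in batch 1 (range 112 to 400) to 32.1 CPM in batch 2 (range 5.61 to 114). Enzymes of earlier steps were also lower, namely Tpi1 with a log2 difference of -1.68 ± 0.38 (adjusted p = 0.00512), Aldoa with -1.15 ± 0.27 (adjusted p = 0.00669), Gapdh with -1.21 ± 0.26 (adjusted p = 0.00431) and Pgam1 with -1.20 ± 0.29 (adjusted p = 0.00791). With the counts of their copies added, Gapdh differed by -1.66, Eno1 by -2.77 and Pgam1 by -1.42. The same number of members, 9, was called in that fit, beside 17.3% of all genes. Gpi1, the gene of glucose-6-phosphate isomerase, differed by -1.04 ± 0.32 (adjusted p = 0.0333) and was lost in 7 of the 23 fits without 1 library, with an adjusted p of up to 0.0869. Pdhb differed by -1.32 ± 0.29 (adjusted p = 0.00436).

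**Figure D4:**
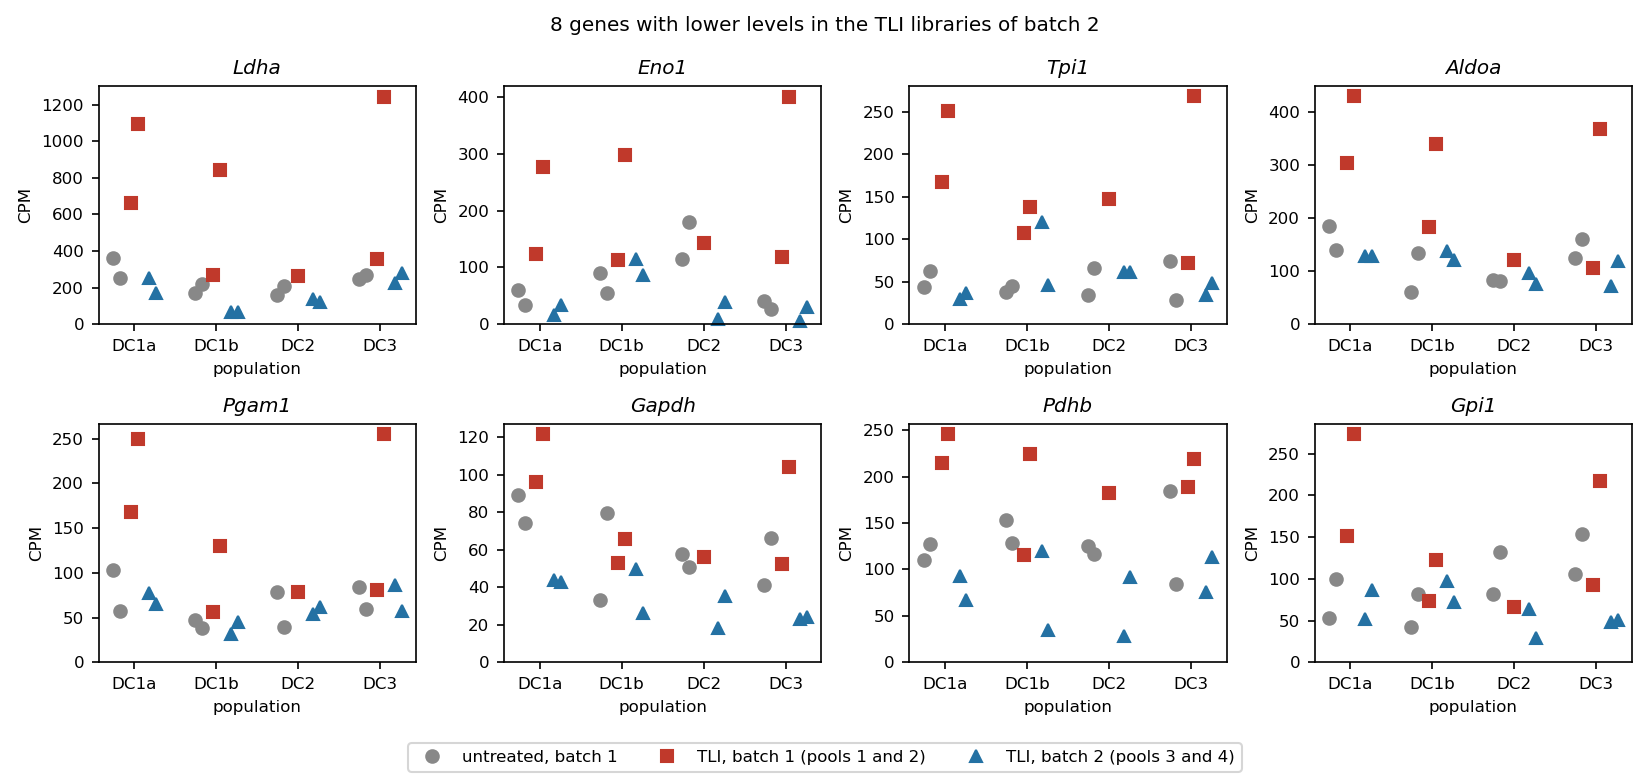
CPM (y axis) of the 8 genes that were lower in TLI batch 2, in each library by population (x axis), with circles for untreated, squares for TLI batch 1 and triangles for TLI batch 2. Ldha reaches 1094 CPM in TLI DC1a pool 2 and 1244 CPM in TLI DC3 pool 2, and its 8 triangles lie between 64.8 and 279 CPM.

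The batch contrast was smaller without pool 2. The 32 genes together took 4460 CPM in TLI DC1a, 3120 CPM in DC1b and 4263 CPM in DC3 of pool 2, and 2743 CPM in DC1a of pool 1. The other 3 TLI libraries of batch 1 held 1668 CPM (DC1b pool 1), 1865 CPM (DC2 pool 1) and 1594 CPM (DC3 pool 1), batch 2 held 1155 to 1792 CPM, and untreated libraries 1245 to 1674 CPM. A library of TLI pool 2 held the highest value of 18 of the 32 genes (56.2%), and of 17.5% of the 11604 genes with a median of at least 1 CPM. Without these 3 libraries 4 members were called between the batches, beside 8.72% of all genes in the same fit, namely Hk2 (log2 difference 1.25, adjusted p = 0.00191), Ldha (-1.33, adjusted p = 0.00230), Eno1 (-2.05, adjusted p = 0.0225) and Tpi1 (-1.24, adjusted p = 0.0484), while Gpi1, Aldoa, Gapdh, Pgam1 and Pdhb no longer passed.

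Other features of these libraries moved with the sum. Transcripts of the mitochondrial genome took 7653, 10874 and 7077 CPM in DC1a, DC1b and DC3 of TLI pool 2 and 9714 CPM in TLI DC1a pool 1, against 14631 to 23140 CPM in the other TLI libraries of batch 1, 30701 to 62886 CPM in batch 2 and 12306 to 31409 CPM in untreated libraries. The sum of 6 markers shared by classical DCs was 89293, 43305 and 58685 CPM in DC1a, DC1b and DC3 of TLI pool 2 and 69168 CPM in TLI DC1a pool 1, against 18865 to 45452 CPM in untreated libraries and 8734 to 28641 CPM in batch 2. Most of this sum was Cd74 and H2-Ab1, with medians of 30793 and 12135 CPM in TLI batch 1. Cd74, H2-Ab1 and Flt3 were called lower in batch 2. Itgax was called higher there, with medians of 101 CPM in TLI batch 1 and 173 CPM in batch 2, and Dpp4 and Zbtb46 were not called. Genes of ribosomal proteins summed to 36098 to 57710 CPM in TLI batch 1 and 60167 to 117494 CPM in batch 2, and 10 cell cycle genes to 590 to 2017 CPM and 365 to 518 CPM. Batch 2 was also the deeper batch, with at least 28456134 counts per library. Some markers of other cell types were lower in batch 2 as well, with 7 of 7 erythroid, 6 of 7 T cell and 5 of 6 NK cell genes called. Of the monocyte and macrophage genes 3 of 10 were called lower, and of the neutrophil genes 1 of 11, beside 8.07% of all genes. The B cell genes overlapped between the batches, with sums of 742 to 3600 CPM in TLI batch 1 and 239 to 5693 CPM in batch 2. The T cell genes summed to 113 to 677 CPM in TLI batch 1 and 2.30 to 36.2 CPM in batch 2, and the NK cell genes to 60.1 to 2624 CPM and 0 to 36.0 CPM. Among the batch 1 libraries, TLI DC3 pool 1 had 138366 CPM of erythroid genes and 1594 CPM of the 32 genes, and TLI DC3 pool 2 had 18568 CPM and 4263 CPM. The part of all these features in the contrast was not tested.

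**Figure D5:**
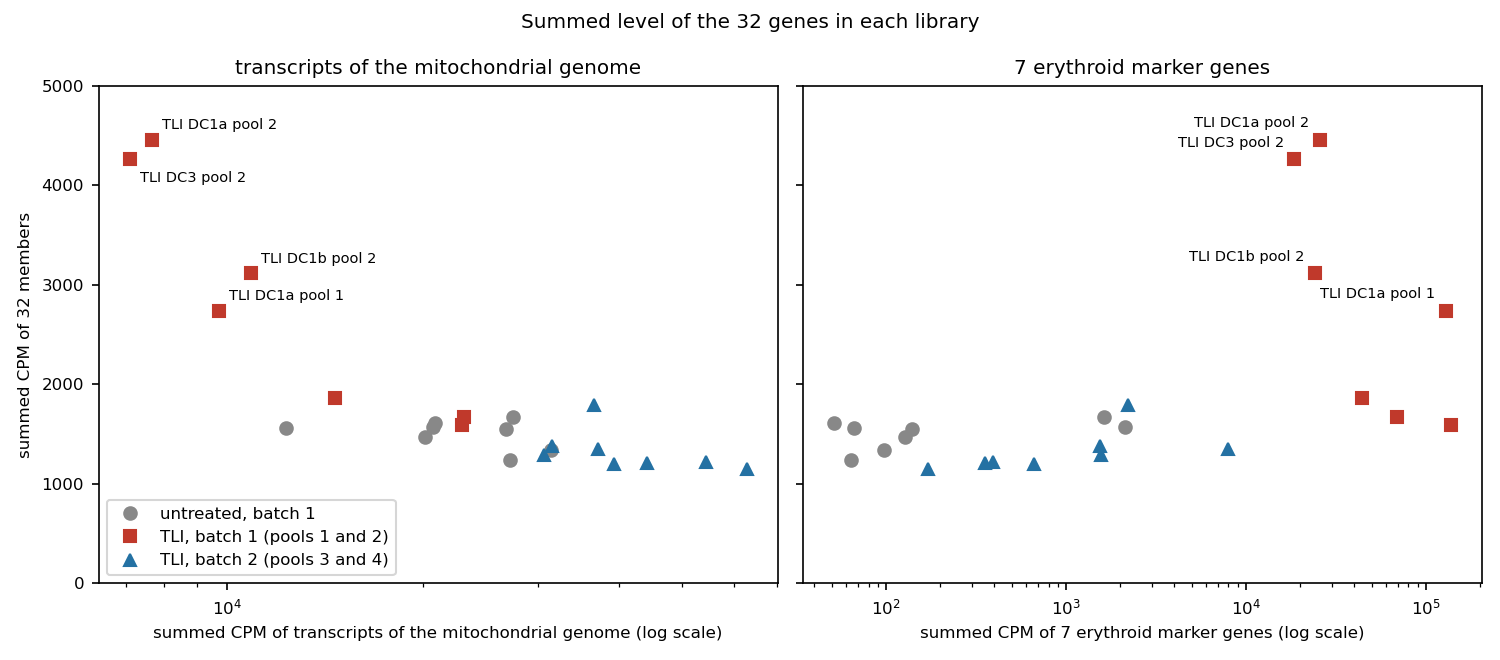
Summed CPM of the 32 genes (y axis) against the summed CPM of mitochondrial transcripts (left, x axis, log scale) and of 7 erythroid genes (right, x axis, log scale) in each library, with circles for untreated, squares for TLI batch 1 and triangles for TLI batch 2. The 4 named libraries hold 2743 to 4460 CPM and lie at the low end of the mitochondrial axis, between 7077 and 10874 CPM, and between 18568 and 129288 CPM on the erythroid axis.

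The promoters of Ldha and Hk2 are shown because these genes were called in opposite directions between the batches and both contain the letters ACGTG, the core of the hypoxia response element, which is written CACGT on the other strand. These are the 250 bases before a transcription start in RefSeq, GRCm38.p6, in the direction of the gene, with each ACGTG or CACGT in capitals. Of the 2 Ldha windows in the table, the one with the motif is shown, chr7:46845554-46845803 on the plus strand, while that at chr7:46846832-46847081 holds no ACGTG, and the Hk2 window is chr6:82774455-82774704 on the minus strand.
Ldha: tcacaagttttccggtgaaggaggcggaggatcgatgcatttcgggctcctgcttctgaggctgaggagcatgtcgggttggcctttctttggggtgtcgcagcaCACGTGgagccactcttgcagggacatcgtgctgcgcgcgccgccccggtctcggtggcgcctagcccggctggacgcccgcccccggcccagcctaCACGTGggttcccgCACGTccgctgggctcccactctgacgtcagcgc
Hk2: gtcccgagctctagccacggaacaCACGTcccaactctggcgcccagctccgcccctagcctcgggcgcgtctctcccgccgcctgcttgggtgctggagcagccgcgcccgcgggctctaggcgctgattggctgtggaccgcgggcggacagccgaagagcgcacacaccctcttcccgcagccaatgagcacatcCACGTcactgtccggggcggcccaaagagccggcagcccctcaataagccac
The Ldha window holds 3 stretches in capitals, of which 2 read CACGTG and count on both strands, and the Hk2 window holds 2. Of the 32 genes, 31 had a promoter in the RefSeq table, and 15 of these (48.4%) held ACGTG on either strand in at least 1 window, against 18.5% of all 27025 genes with a promoter. With GCGTG, the other form of the core, the shares were 64.5% and 30.9%. The 31 genes had 44 windows and the 27025 genes 32851. These shares were not matched for the number of windows or for the content of G and C, so they do not show an excess of the motif. Among the 8 genes lower in batch 2, 4 held ACGTG and 5 held GCGTG, and Gpi1 and Tpi1 held neither. A match is a description of the letters only.

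Genes next to the 32 in the same pathway were read from 3 lists. Of 40 further genes of sugar and lactate handling, 30 were tested. Emb (embigin, a partner protein of monocarboxylate transporters) was higher than in DC1a in untreated DC2 (log2 difference 4.21 ± 0.99, adjusted p = 0.0350), TLI DC1b (3.89 ± 0.69, adjusted p = 0.00518), TLI DC2 (4.47 ± 0.75, adjusted p = 0.00221) and TLI DC3 (2.94 ± 0.66, adjusted p = 0.0476). Mpc2, a subunit of the mitochondrial pyruvate carrier, was lower than in DC1a in untreated DC1b (-1.44 ± 0.31, adjusted p = 0.0357), untreated DC2 (-1.35 ± 0.31, adjusted p = 0.0303) and TLI DC2 (-0.95 ± 0.24, adjusted p = 0.0367). Slc16a6 was lower in TLI DC1b than in TLI DC1a (-3.27 ± 0.79, adjusted p = 0.0488), and no other gene of this list was called between populations. Between the batches 1 of the 30 was higher and 5 were lower in batch 2, beside 9.35% and 8.07% of all genes, and those with the lowest adjusted p were Bsg (basigin, the partner protein of MCT1 and MCT4), at -2.21 ± 0.30 (adjusted p = 8.52e-05), Slc16a6 at -3.23 ± 0.62 (adjusted p = 0.00172) and Slc2a8, with no count in most batch 2 libraries, at -6.90 ± 1.79 (adjusted p = 0.0141).

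Of 23 genes of the HIF pathway and its targets outside glycolysis, 20 were tested. Vhl, which marks HIF-1 alpha for degradation, was lower in TLI DC2 than in TLI DC1a (-2.03 ± 0.47, adjusted p = 0.0229) and higher in TLI DC3 than in TLI DC2 (2.01 ± 0.47, adjusted p = 0.0444). Between the batches Higd1a was higher in batch 2 (0.92 ± 0.21, adjusted p = 0.00585), and Bnip3l (-0.80 ± 0.23, adjusted p = 0.0237) and Vegfa, a growth factor for blood vessels with no count in most batch 2 libraries (-5.85 ± 1.83, adjusted p = 0.0360), were lower. Hif1a itself was called in no comparison. Of 10 regulators, 8 were tested and 3 were called between populations, each in 1 comparison, where 1.91%, 3.40% and 1.11% of all genes were called. Txnip, an inhibitor of glucose uptake, was higher in untreated DC2 than in DC1a (5.38 ± 1.305, adjusted p = 0.0425), Irf4 higher in TLI DC2 than in DC1a (5.02 ± 1.26, adjusted p = 0.0350) and Myc higher in TLI DC3 than in DC1b (2.81 ± 0.66, adjusted p = 0.0496). No gene of the 3 lists was called between TLI and untreated libraries of any population by edgeR.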

How the data were processed

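RNA from sorted spleen DCs of pooled mice was amplified with the SMARTseq v4 UltraLow Input kit, made into KAPA HyperPlus libraries and sequenced as 76-base read pairs. Per the labels and the study's methods, the authors trimmed reads with Trimmomatic, aligned them to GRCm38 with HISAT2, and deposited estimated counts per gene from StringTie, which are whole numbers and were used as they stand. The labels name these tools without versions, and the versions in the study's methods are not repeated here. Whether counting used the strand is not given in the sources used here. Of 47729 gene identifiers, 47224 matched GENCODE M21 and 505 did not. Total counts per library were 19256447 to 36997890, with a median of 27199618.

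Counts were scaled by TMM (factors 0.84 to 1.18) and filtered by filterByExpr. The main model had a term for each of 8 groups and 1 for batch, over 23 libraries with 14 residual degrees of freedom, and was tested by the quasi-likelihood F test of edgeR 4.0.16 in R 4.3.3. The batch term is estimated from TLI pools alone, since untreated pools are all of batch 1. A gene was called at a Benjamini-Hochberg adjusted p under 0.05 over 19597 genes. The biological coefficient of variation was 1.08. Values are CPM on TMM-scaled totals, log2 CPM with a prior count of 2, and, between genes, TPM by exon length. A library with 3 counts or fewer was taken to be at the floor. Floors cover counting error only, while p-values from the fit measure the spread between libraries of a group, which came from different pools of mice. Each standard error is the size of the log2 difference divided by the square root of the F statistic. It is therefore approximate, above all for genes with no count in many libraries. In the main fit, libraries of the same pool entered as independent, so the spread used in every comparison rests on more libraries than pools. For the comparison of batches, the difference itself also counts each pool through several libraries. Scripts were tested on simulated data. Promoter sequences came from RefSeq.

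The 32 genes and all gene lists were chosen with earlier results of these data known. Members called in any of 16 pairwise comparisons or the interaction are described with the value in every library, and the others by range or median. Slc2a3, Hk3, Tpi1 and the genes that differed between the batches were described further after their values were seen. Among the other lists, up to 3 called genes a list are named in each family of comparisons.

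The labels pair libraries of 1 treatment by pool of mice. Over same-pool pairs the correlations of residuals after the group and batch terms were -0.00585 to 0.0159 for untreated (12 pairs) and -0.162 to 0.0673 for TLI (21 pairs), with 0 above 0.1. With 2 libraries in each untreated group the residuals are equal and opposite, so different-pool pairs repeat these values with the sign reversed. For TLI the median was -0.0886 in same-pool and -0.100 in different-pool pairs. These correlations do not single out the glycolysis genes, of which 18 were highest in a TLI pool 2 library. They therefore cannot decide whether pools mattered for those genes. Alternatives were RLE size factors, no filter, DESeq2 1.42.0, no batch term, the pools as a block, fits of 1 treatment or batch, transcript length, and leaving out each library. The batch comparison, TLI pools 3 and 4 alone, added copies, and leaving out TLI pool 2 were chosen after seeing the data.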

Additional observations from a re-analysis of the deposited data

Results flagged for a closer look

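In groups of 4 libraries, a library was flagged when its gap to the nearest other value exceeded 0.829 of the group's range, and 9 of 96 pairs of gene and group met this. Chance gives about 1 in 20 for 4 values of 1 normal distribution. That rate need not hold here, as each group spans both batches and some flags arose where all other libraries held 0. In TLI DC1a, Slc2a6 was 17.1 CPM in pool 2 and 3.30 to 4.18 CPM in the others. In the same group Ldhb was 3.00 CPM in pool 1 and 0 in the others, and Fbp1 was 0 in pool 3 and 2.17 to 3.20 CPM in the others. In TLI DC1b, Hk3 was 23.3 CPM in pool 1 against 16.9 to 17.8 CPM. Slc16a3 was 10.6 CPM in TLI DC1b pool 2 against 1.68 to 2.08 CPM, and Fbp1 was 7.12 CPM there with 0 in the others. In TLI DC3, Aldoc was low in pool 3, at 0.875 CPM against 17.2 to 30.4 CPM. Pdk1 was 14.7 CPM in TLI DC3 pool 2 against 6.10 to 6.79 CPM, and Fbp1 was 3.06 CPM there with 0 in the others. Of the 9 values, 5 belong to TLI pool 2, and the cause was not tested.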

How the results depend on the processing

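Counts of the 32 genes called depended on the test more than on the scaling. With DESeq2 they were 4 for untreated DC1b against DC1a, 3 for DC2 against DC1a, 2 for DC2 against DC1b, 2 for DC3 against DC1b and 2 for DC3 against DC2. In TLI populations DESeq2 called 4 for DC1b against DC1a, 4 for DC2 against DC1a, 3 for DC3 against DC1a, 2 for DC2 against DC1b and 4 for DC3 against DC1b. Between TLI and untreated it called 1 in DC1a, 6 in DC1b, 1 in DC2 and 3 in DC3, in the interaction 2, and between the batches 16. The shares of all genes that DESeq2 called, where not given above, were 5.38% and 4.55% for untreated DC2 and DC3 against DC1b, 12.2% and 5.57% for TLI DC2 and DC3 against DC1a, 6.41% for TLI DC3 against DC1b and 29.98% between the batches. With the share of all genes called in the same fit in brackets, here and below, RLE size factors gave 0 for TLI DC3 against DC1a (0.750%) and 0 for TLI DC3 against DC2 (1.28%). They moved the median log2 difference of all genes between the batches from -0.23 to -0.37. Without the filter there were 0 for untreated DC2 against DC1b (0.311%), 2 for TLI DC3 against DC1b (0.835%) and 0 for TLI DC3 against DC2 (0.993%). Without the batch term there were 0 for untreated DC2 and DC3 against DC1b (0.184% and 0.0255%) and 1 for TLI DC2 against DC1a (1.90%). That fit gave 0 for TLI DC3 against DC1a (0.352%), DC1b (0.551%) and DC2 (0.873%). The 15 TLI libraries alone gave 0 for DC3 against DC2 (1.21%) and 3 for DC2 against DC1a (Hk2, Eno2 and Pdha1, 2.97%). They gave 1 for DC3 against DC1a (Eno2 and not Hk2, 0.634%) and 10 between the batches (18.8%). With TLI pools 3 and 4 alone, 2 members were called between TLI and untreated DC1b (2.91%) and 1 in DC2 (3.76%). Without the 3 TLI pool 2 libraries there were 1 for untreated DC1b against DC1a (1.02%) and 2 for TLI DC1b against DC1a (1.47%). The same fit gave 1 for TLI DC2 against DC1b (0.151%), 0 for TLI DC3 against DC1b (0.618%) and 4 between the batches (8.72%). The cause was not tested.

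With pool as the replicate block there was 1 for TLI DC1b against DC1a (1.45%), 0 for TLI DC3 against DC1a (0.658%) and 0 for TLI DC3 against DC1b (0.873%). The block changed no other count. No paired analysis was possible for TLI against untreated because the treatments used different pools of mice. Leaving out each library in turn gave 8 to 12 members called between the batches, 1 to 2 for TLI DC2 against DC1a, and 0 in every fit for untreated DC2 and DC3 against DC1a, untreated DC3 against DC2, and TLI against untreated DC1b, DC2 and DC3. It gave 0 to 1 for the other comparisons, including untreated DC1b against DC1a and TLI against untreated DC1a, each with 1 only without TLI DC3 pool 2. No call changed direction under the alternatives run. Of the values of single called genes under the alternatives, 369 kept their call and 109 fell below the threshold. The floor of 3 counts corresponds to 0.0862 to 0.147 CPM, and differences below it were not detectable at this depth.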
